A study of Mus musculus with 4 samples.

Results

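The 763 regions described here are Dzip3 peaks of mES cells that overlapped a Ring1B peak but neither a ubH2A peak nor an input DNA peak. They were chosen by the overlap percentages that the authors list for each Dzip3 peak, with a value above 0 for Ring1B and a value of 0 for ubH2A and for input DNA. They made up 11.8% of the 6482 Dzip3 peaks (95% Wilson interval 11.01% to 12.58%). Of the others, 1165 overlapped both Ring1B and ubH2A peaks, 445 overlapped ubH2A only, 2382 overlapped neither, and 1727 overlapped an input peak. The peaks with neither mark are called Dzip3-only peaks below.

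Dzip3 and Ring1B are both E3 ubiquitin ligases that act on lysine 119 of histone H2A. Ring1B, encoded by Rnf2, is the catalytic subunit of Polycomb repressive complex 1, which in ES cells is best known from the CpG-rich promoters of silent developmental genes. The product of the reaction, ubH2A, is a repressive mark, so a site where both ligases gave a peak and the mark did not is a site of the enzymes without a called peak of their product. All 4 libraries came from E14 mES cells, a feeder-free mouse line of strain 129/Ola at passage 3-5, kept in N2B27 with PD0325901 at 1 μM, CHIR99021 at 3 μM (together 2i) and LIF at 1000 U/ml. The labels name no genetic change and no other culture condition. Cells were fixed for 10 min in 1% formaldehyde. Fragmentation is given as Picoruptor shearing in the labels and as micrococcal nuclease digestion in the methods. The 3 antibodies were raised by the authors in rabbits.

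Each of the 3 ChIP targets and the input DNA had 1 library, without replicates. Listed heights imply library sizes between 48.3 M reads (input DNA) and 67.0 M reads (ubH2A). A read count below is the total of a library within a peak, and a scaled value is that count divided by the library size. All intervals cover counting error only, and no p-value is given, because peaks of a library are not replicates. The absence of a ubH2A peak is a call at the threshold of the authors and does not mean that ubH2A reads were absent. Whether reads that match several places of the genome entered the lists is not given in the sources used here.

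The sequences under the peaks came in 3 kinds, which were set after seeing the data. In 115 of the 763 peaks at least 50% of the bases lay in exact tandem stretches, meaning runs of at least 24 bases that repeat a unit of up to 12 bases. Another 449 peaks were not tandem but had over 50% of their 31-base words in more than 1 place of the genome, and these are called repeated. The remaining 199 were mostly unique. Examples of the tandem kind are given first, since this kind set the group apart from the other Dzip3 peaks. They are the central bases of peaks in mm9 on the plus strand, with exact tandem stretches in capitals. Each has the highest RPM for its repeat unit, tied for the third. The first is the highest of all 763, lies between genes 253 kb from the nearest TSS (Zfp326), and is shown over 200 bases. The others are shown over 120 bases, in introns of Bcas3 and Ntm and between genes, nearest to Tapt1 and Cdcp2.
chr5:106586590-106586789: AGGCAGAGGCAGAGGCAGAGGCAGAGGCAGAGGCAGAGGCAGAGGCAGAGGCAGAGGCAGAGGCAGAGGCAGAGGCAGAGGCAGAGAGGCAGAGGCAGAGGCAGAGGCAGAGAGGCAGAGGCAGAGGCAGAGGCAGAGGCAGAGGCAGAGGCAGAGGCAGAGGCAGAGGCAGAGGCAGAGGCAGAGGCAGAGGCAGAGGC
chr11:85487739-85487858: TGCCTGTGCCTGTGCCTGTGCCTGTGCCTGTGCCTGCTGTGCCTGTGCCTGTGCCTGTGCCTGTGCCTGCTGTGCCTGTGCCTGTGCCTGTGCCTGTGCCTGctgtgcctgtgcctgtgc
chr9:29291907-29292026: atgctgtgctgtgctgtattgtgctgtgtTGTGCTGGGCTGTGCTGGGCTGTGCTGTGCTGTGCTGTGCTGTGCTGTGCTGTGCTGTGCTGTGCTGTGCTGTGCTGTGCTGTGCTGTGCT
chr5:44677542-44677661: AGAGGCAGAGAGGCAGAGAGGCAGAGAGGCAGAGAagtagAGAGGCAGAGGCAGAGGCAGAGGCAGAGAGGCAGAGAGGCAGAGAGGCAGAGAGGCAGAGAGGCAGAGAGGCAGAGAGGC
chr4:106781767-106781886: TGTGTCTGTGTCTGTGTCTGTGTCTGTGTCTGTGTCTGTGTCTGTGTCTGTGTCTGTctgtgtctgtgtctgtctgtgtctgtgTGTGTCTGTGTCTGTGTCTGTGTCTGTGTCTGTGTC

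A much smaller set consisted of CpG-rich promoters, shown next because scaled Ring1B exceeded Dzip3 in most of them. Capitals mark CG. The peaks shown lie at Hoxc9 (321 bp from the nearest TSS, outside the gene), Wnt10b (580 bp, coding exon) and Kazald1 (730 bp, coding exon). Peaks that touch an untranslated exon are not printed.
Hoxc9, chr15:102806337-102806536: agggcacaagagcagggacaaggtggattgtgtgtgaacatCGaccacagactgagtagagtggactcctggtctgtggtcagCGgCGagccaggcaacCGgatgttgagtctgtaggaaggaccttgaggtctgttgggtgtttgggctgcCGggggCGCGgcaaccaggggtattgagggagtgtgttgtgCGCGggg
Wnt10b, chr15:98606913-98607112: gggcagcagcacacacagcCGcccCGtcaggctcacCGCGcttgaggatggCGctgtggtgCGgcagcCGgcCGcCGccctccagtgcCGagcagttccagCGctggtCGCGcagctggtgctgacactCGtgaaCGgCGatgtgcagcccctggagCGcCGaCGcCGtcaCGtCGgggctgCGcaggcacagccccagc
Kazald1, chr19:45151376-45151575: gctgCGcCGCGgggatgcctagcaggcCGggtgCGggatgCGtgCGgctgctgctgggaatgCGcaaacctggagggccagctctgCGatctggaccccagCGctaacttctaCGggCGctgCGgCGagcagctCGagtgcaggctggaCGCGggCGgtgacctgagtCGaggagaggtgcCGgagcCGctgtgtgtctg

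Of the 648 peaks outside the tandem kind, 344 fell into families that share 31-base words. Of these families, 3 are shown by the member with the most shared sequence. Capitals mark words found in at least 10% of the family. The first family had 77 peaks, the next 43 and the last 21. The first lies 285 kb from the nearest TSS (Nrg3), the second 143 kb (Far2), and the last in an intron of Sfmbt2.
Family of 77, chr14:40571235-40571434: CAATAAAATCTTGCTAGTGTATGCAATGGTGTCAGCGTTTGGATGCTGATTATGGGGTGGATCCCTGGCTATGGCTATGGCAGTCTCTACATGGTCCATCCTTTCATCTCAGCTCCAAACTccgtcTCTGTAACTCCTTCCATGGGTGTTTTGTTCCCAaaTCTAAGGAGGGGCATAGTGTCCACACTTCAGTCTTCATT
Family of 43, chr6:147852686-147852885: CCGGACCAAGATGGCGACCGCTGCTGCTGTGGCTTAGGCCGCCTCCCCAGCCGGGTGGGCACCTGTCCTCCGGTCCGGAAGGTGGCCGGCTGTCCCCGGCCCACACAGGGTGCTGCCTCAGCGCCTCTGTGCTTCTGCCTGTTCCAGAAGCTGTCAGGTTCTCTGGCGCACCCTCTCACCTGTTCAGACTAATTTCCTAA
Family of 21, chr2:10475298-10475497: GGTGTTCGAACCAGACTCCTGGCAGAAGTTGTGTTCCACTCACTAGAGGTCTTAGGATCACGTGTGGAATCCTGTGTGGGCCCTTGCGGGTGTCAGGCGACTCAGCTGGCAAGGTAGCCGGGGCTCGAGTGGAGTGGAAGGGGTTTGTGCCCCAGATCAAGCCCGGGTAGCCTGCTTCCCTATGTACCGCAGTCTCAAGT

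Within the 763 peaks the Dzip3 and Ring1B libraries gave nearly the same number of reads. The median was 79 Dzip3 reads (range 33 to 2526), 76 Ring1B reads (14 to 3281), 41 ubH2A reads (0 to 118) and 5 input reads (0 to 40). The median peak was 253 bp long, with a height of 0.770 RPM and a listed fold over input of 13.5 (95% interval of the median 12.5 to 14.6, range 1.64 to 461). The fold reached at least 5 in 661 peaks and was under 2 in 2. In 79 peaks input gave no read, so that the fold there is set by the Dzip3 count alone.

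After scaling for library size, the median ratio of Ring1B to Dzip3 was 0.979 (0.939 to 1.00), and Ring1B exceeded Dzip3 in 354 peaks, or 46.4%. Among all 6482 Dzip3 peaks this was 23.3%. Since a Ring1B peak was required, this is a description of the choice and supports nothing. The ratio was 0.996 in the peaks with both Ring1B and ubH2A and 0.408 in Dzip3-only peaks. The median ratio of ubH2A to Dzip3 was 0.369 (0.356 to 0.394), compared with 0.747 in peaks with both and 0.315 in Dzip3-only peaks. Over all 763 peaks the summed scaled ubH2A reads were 4.31 times the input reads, against 3.84 times in Dzip3-only peaks and 7.08 times in peaks with both. Scaled ubH2A exceeded scaled input in 742 of the 763 peaks (97.2%), against 90.4% of all Dzip3 peaks and 93.9% of Dzip3-only peaks, and 4 had no ubH2A read. All Dzip3 peaks include those with an input peak, where the share was 73.8%. The rule used ubH2A and input peaks, so these ubH2A values describe the choice too.

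**Figure D1:**
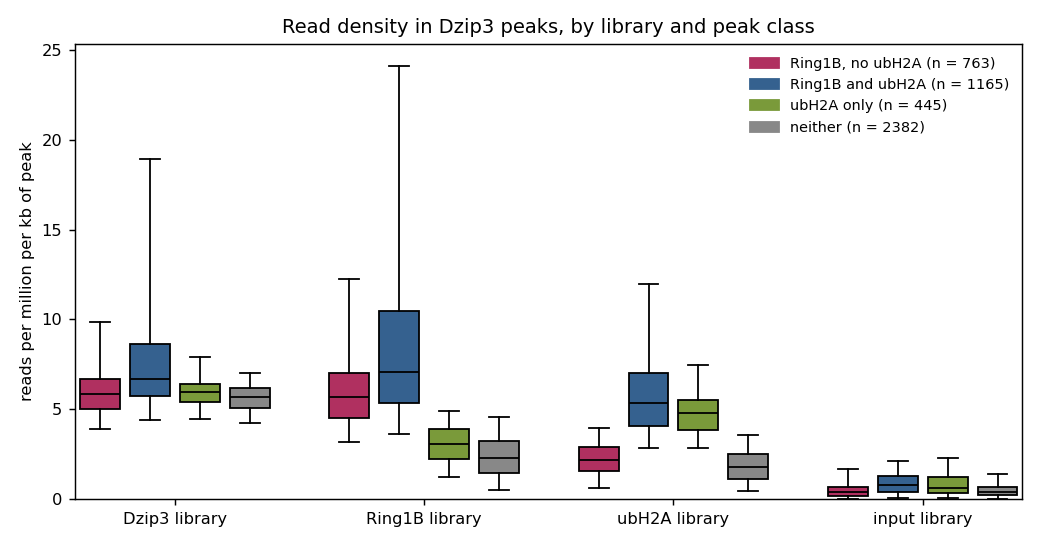
RPM per kb of peak (linear axis) in the 4 libraries for 4 classes of Dzip3 peaks. Boxes give quartiles, the line the median and whiskers the 5th and 95th percentiles; in the 763 peaks the medians were 5.87 for Dzip3, 5.69 for Ring1B, 2.19 for ubH2A and 0.376 for input DNA. The classes were chosen by called peaks, so the Ring1B and ubH2A boxes describe the choice.

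The Ring1B peak usually lay on the Dzip3 peak. It covered a median of 92.5% of it, at least 50% in 687 peaks and all of it in 236, and the centres were a median of 44 bp apart. In 757 cases there was 1 Ring1B peak and in 6 there were 2. The Ring1B peak itself reached a ubH2A peak beyond the Dzip3 peak in 32 cases and an input peak in 3. A gene named beside a peak is that of the nearest TSS, at whatever distance. At the edge of the rule the calls were less distinct than the classes. The lowest Ring1B to Dzip3 ratio was that of chr6:120582569-120583011 near Cecr2, with 910 Dzip3 and 138 Ring1B reads. Among the next were peaks near Tbc1d4 (74 Dzip3 and 14 Ring1B reads), Atp11b (65 and 18) and Glrx5 (54 and 16), where the Ring1B peak covered between 5.5% and 10.3%. The 5 Dzip3-only peaks with the highest ratio lay just outside the rule. They were those near Wdr11 (35 Dzip3 and 45 Ring1B reads), Tbk1 (49 and 59), Iyd (54 and 65), Clec2l (54 and 60) and Tmsb10 (55 and 60).

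The strongest peak stood far from the rest. The peak chr5:106586492-106586888, whose tandem sequence is printed first above, held 2526 Dzip3, 3281 Ring1B, 38 ubH2A and 4 input reads, with a height of 23.7 RPM. The next by height was the peak near Cecr2, a chromatin remodelling factor gene, with 8.52 RPM. It held 910 Dzip3, 138 Ring1B, 30 ubH2A and 7 input reads. The peak chr6:35726186-35726401 held 289 Dzip3, 192 Ring1B, 29 ubH2A and 7 input reads, and lies 236 kb from the nearest TSS (Mtpn). Those nearest to Pla2g4a but 1018 kb away (364 Dzip3, 229 Ring1B, 58 ubH2A and 2 input reads) and in an intron of Lrp1b (232, 136, 37 and 1) completed the 5 highest. In all 5, ubH2A stayed between 29 and 58 reads while Dzip3 ranged from 232 to 2526. The rule left out ubH2A peaks and the 5 were picked by Dzip3 height, so this contrast describes the choice. The same Cecr2 and Mtpn peaks led the folds among peaks with at least 5 input reads (103 and 32.8), followed by peaks near Rpl28-ps4 (32.4), Maf (32.2) and 1700018B24Rik (27.9).

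After the chromosome 5 peak, the next peaks by Ring1B reads lay in 2 places. The peak chr8:126121038-126121338 held 472 Ring1B and 162 Dzip3 reads, chr8:126138565-126138867 held 344 and 95, and chr8:126096246-126096596 held 341 and 127. The peak chr6:47604868-47605341, nearest to Ezh2, held 421 Ring1B, 145 Dzip3, 82 ubH2A and 35 input reads. Each of these is repeated sequence in a window with many Dzip3 peaks, described below.

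**Figure D2:**
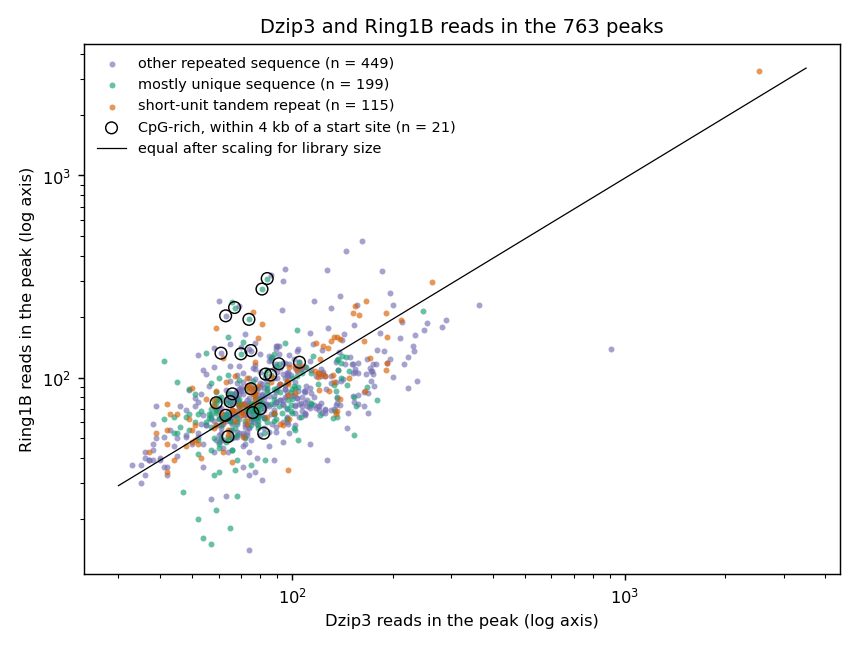
Ring1B reads against Dzip3 reads (log axes) in the 763 peaks, coloured by kind of sequence, with the line of equal scaled reads. The tandem peak with 2526 Dzip3 and 3281 Ring1B reads lies alone at the upper right, and circled CpG-rich promoter peaks reach 309 Ring1B reads at 84 Dzip3 reads.

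Short tandem repeats were more frequent under these peaks than under any other class of Dzip3 peaks. They made up 115 of 763 peaks, or 15.1% (12.7% to 17.8%), against 4.29% of all Dzip3 peaks. The share was 5.41% in peaks with both Ring1B and ubH2A, 2.77% in Dzip3-only peaks, 0.449% in peaks with ubH2A only and 1.85% in peaks with input. The difference from Dzip3-only peaks was 12.3 percentage points (Newcombe interval 9.83 to 15.1), and that from peaks with both was 9.66 points (6.89 to 12.6). These differences were similar among stronger and weaker peaks, split at the median height of all Dzip3 peaks. In the stronger part the shares were 16.3% here and 2.78% in Dzip3-only peaks, and in the weaker part 13.6% and 2.77%. Sequence was not used by the rule.

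From the side of Ring1B largely the same places are counted, so only the Ring1B peaks without Dzip3 add a comparison. Of the Ring1B peaks without ubH2A and input, 740 overlapped a Dzip3 peak and 5924 did not. Tandem repeats made up 16.2% of the former (13.74% to 19.05%) and 2.53% of the latter (2.16% to 2.96%). The share at Ring1B peaks without Dzip3 was thus close to the 2.77% of Dzip3-only peaks.

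**Figure D3:**
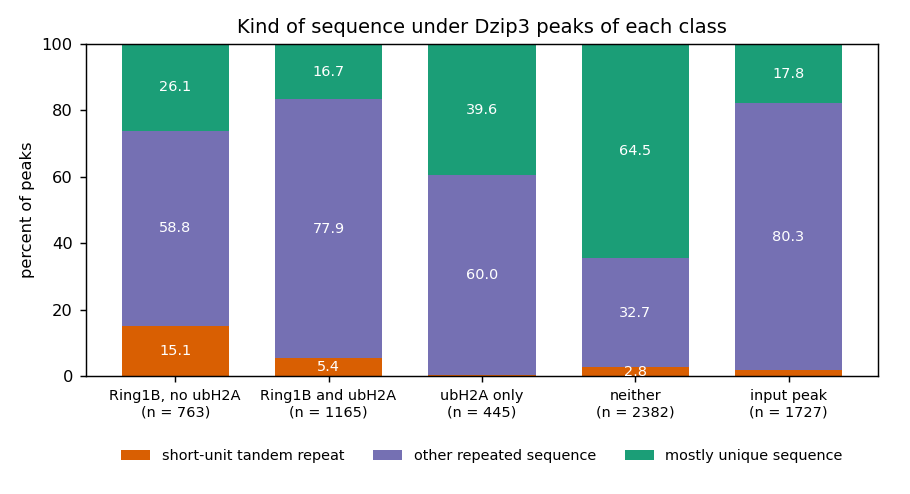
Percent of peaks (linear axis) of each kind of sequence in the 5 classes of Dzip3 peaks. The tandem part is 15.1% in peaks with Ring1B and no ubH2A and 5.41% or less in the other classes, while the mostly unique part is 26.1% there and 64.5% in Dzip3-only peaks.

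The tandem units were of 34 types, many of them found in a single peak, and the most frequent are named here. Written as the first in alphabetical order of all rotations on both strands, the longest stretch repeated ACAGC in 13 peaks, AGAGGC in 13, AGGC in 13, ACACAG in 12, ACAGGC in 11, AGAGAGGC in 10 and AC in 7. In 99 of the 115 the unit held both G and C, and the longest stretch had a median of 74 bp. The median was 86 Dzip3, 101 Ring1B, 38 ubH2A and 4 input reads in AGAGGC peaks, and 124, 95, 54 and 4 in ACAGGC peaks. The 12 ACACAG peaks had more input, with medians of 99 Dzip3, 91 Ring1B, 39 ubH2A and 13.5 input reads.

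The number of tandem tracts under peaks did not follow the abundance of a repeat in the genome. In mm9 there were 81985 exact tandem tracts of at least 60 bases, and 169 of them, or 0.206%, overlapped one of the 763 peaks. These are counts of tracts and not of peaks, since a mismatch ends a tract and a peak can overlap several. The intervals treat tracts as separate and can be too narrow. Of 82 tracts of ACAGGC, 22 did, or 26.8% (18.4% to 37.3%), and 60 overlapped some Ring1B peak. The share was 10.8% of 93 AGGC tracts, 7.23% of 318 ACACAG tracts, 6.34% of 284 AGAGAGGC tracts and 5.06% of 79 ACAGC tracts. Of 1298 AGAGGC tracts, 35 did (2.70%). By contrast none of 13271 AG tracts overlapped such a peak, nor did any of 12532 AAAG or 10094 AAG tracts, with an upper Wilson bound of 0.0289% for AG. Among 2956 AC tracts 11 did, or 0.372%. Dzip3 peaks of any class overlapped 0.6025% of all tracts. They overlapped 45.1% of ACAGGC, 22.8% of ACAGC, 8.40% of AGAGGC and 0.0151% of AG tracts. The unevenness between units was thus seen for Dzip3 peaks in general and was not particular to the 763. Units with and without G and C differ in base composition and in how well short reads can be placed on them, and the part of either in these shares was not tested.

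Over 50% repeated words were found in 558 of the 763 peaks, or 73.1% (69.9% to 76.2%), when tandem peaks are included. The share was 62.6% of all Dzip3 peaks, 35.4% in Dzip3-only peaks, 60.4% in peaks with ubH2A only, 82.9% in peaks with both Ring1B and ubH2A and 82.1% in peaks with input. The difference was 37.7 points from Dzip3-only peaks (33.9 to 41.3) and -9.79 points from peaks with both (-13.6 to -6.01). Peaks were also split at the median height of all Dzip3 peaks. The difference from peaks with both was then -3.84 points in the stronger part, with an interval spanning both signs (-8.58 to 0.571). In the weaker part it was -14.2 points (-21 to -6.98). The difference from Dzip3-only peaks was 34.4 points in the stronger part (28.6 to 39.7) and 33.5 points in the weaker part (28 to 38.7). A word of the median peak occurred 12 times in the genome, and 1 time in Dzip3-only peaks.

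Of the 648 peaks outside the tandem kind, 344 shared a word with at least 1 other and formed 34 families. The 7 families of at least 10 peaks held 247 of them. The largest had 77 peaks on 20 chromosomes, in 76 separate windows of 1 Mb. It had medians of 91 Dzip3, 79 Ring1B, 35 ubH2A and 4 input reads, a GC content of 44.8%, and 144 kb to the nearest TSS. Its words occurred a median of 8754 times in the genome. The family of 43 had 86 Dzip3, 72 Ring1B, 38 ubH2A and 2 input reads, with 2469 copies and 160 kb to the nearest TSS. The family of 34 was poor in GC (37.9%), with 79 Dzip3, 71.5 Ring1B, 31 ubH2A and 9 input reads and 8760 copies. The family of 21 was rich in GC (62.0%), with 78 Dzip3, 76 Ring1B, 34 ubH2A and 3 input reads, 2197 copies and 161 kb to the nearest TSS. In the family of 21, 16 peaks shared a single word, and in the family of 77 the most common word was found in 19. In these 4 families the median distance to a TSS was 144 to 161 kb, although 17, 8, 7 and 4 of their peaks, in the same order, lay in a gene body. Input was above the median of 5 reads in the family of 34 and below it in the other 3. A family of 45 differed, with a median of 2 copies a word, 38.2 kb to the nearest TSS and 6 peaks within 4 kb of a TSS.

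The 763 peaks lay mostly away from promoters. Within 4 kb of a protein-coding TSS there were 82, or 10.7% (8.74% to 13.1%), against 13.3% of all Dzip3 peaks, and within 100 kb there were 533, or 69.9%, against 76.1%. The median distance was 36.8 kb (32.5 to 44.1 kb). It was 26.6 kb (24.3 to 28.9 kb) for Dzip3-only peaks and 47.8 kb for peaks with both Ring1B and ubH2A. The share within 4 kb was 15.8% in Dzip3-only peaks, a difference of -5.04 points (-7.55 to -2.26). It was 8.58% in peaks with both, a difference of 2.16 points whose interval included 0 (-0.496 to 4.98).

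By gene feature, 438 peaks were intergenic, 274 intronic, 43 in coding exons and 8 in untranslated or noncoding exons. A protein-coding gene body held 325, or 42.6% (39.1% to 46.1%), against 40.7% of all Dzip3 peaks. This was 51.0% in Dzip3-only peaks and 33.5% in peaks with both. The 3 kinds of sequence differed in position. Unique peaks lay a median of 21.3 kb from a TSS, tandem peaks 33.1 kb and repeated peaks 58.3 kb. Exons held 36 of 199 unique peaks (18.1%), 14 of 449 repeated peaks (3.12%) and 1 of 115 tandem peaks (0.870%). The difference between unique and repeated peaks was 14.97 points (9.82 to 21.04).

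Among unique peaks alone the distance from Dzip3-only peaks was no longer seen. The share within 4 kb of a TSS was 18.1% of the 199 unique peaks here and 19.9% of the 1537 unique Dzip3-only peaks, a difference of -1.82 points (-6.98 to 4.42). The median distances were 21.3 and 20.2 kb, and exons held 18.1% and 19.2%. The 194 unique peaks with both Ring1B and ubH2A had 17.0% within 4 kb but 3.61% in exons, a difference of 14.5 points in exons (8.51 to 20.7).

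**Figure D4:**
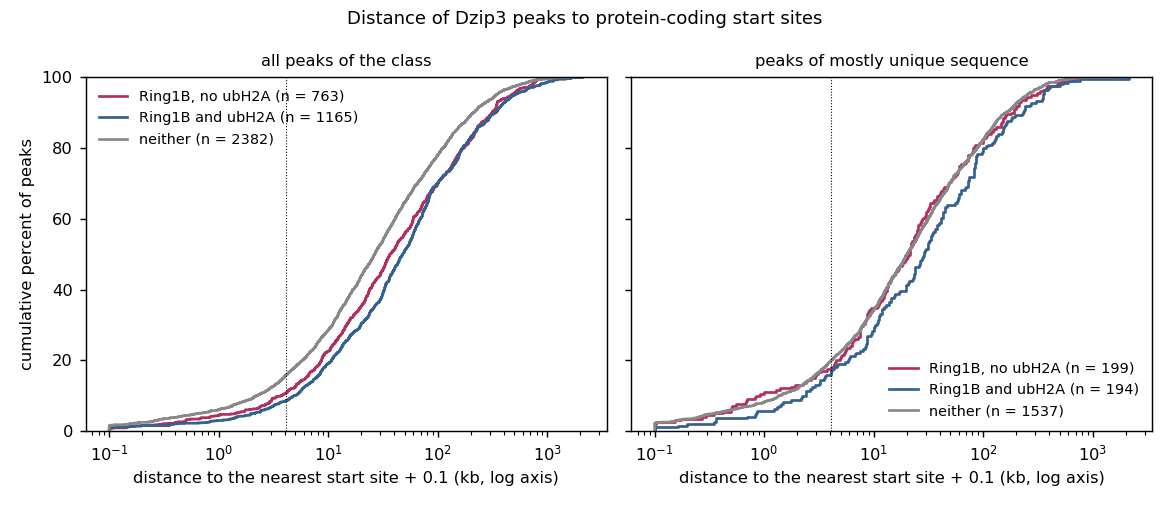
Cumulative percent of peaks by distance to the nearest protein-coding TSS (log axis, 0.1 kb added), for all peaks on the left and for mostly unique peaks on the right. The dotted line marks 4 kb. On the left the curve of the 763 peaks (median 36.8 kb) lies to the right of that of Dzip3-only peaks (26.6 kb), and on the right both have medians near 21 kb.

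A group of 21 peaks lay within 4 kb of a TSS and had a CpG content of at least 0.6 of that expected from C and G. They were 2.75% of the 763 peaks (1.81% to 4.17%), against 2.10% of Dzip3-only peaks and 0.773% of peaks with both Ring1B and ubH2A. The difference was 0.653 points (-0.498 to 2.16) from the former and 1.98 points (0.810 to 3.45) from the latter. Among unique peaks the share was 8.04% here, 3.06% in Dzip3-only peaks and 1.03% in peaks with both, and the differences were 4.98 points (1.80 to 9.66) and 7.01 points (2.98 to 11.7). The group of 21 had a median of 75 Dzip3, 104 Ring1B, 27 ubH2A and 2 input reads. The scaled ratio of Ring1B to Dzip3 was 1.29 (1.17 to 2.23), compared with 0.966 in the other 742.

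The 8 peaks with the most Ring1B reads of the 21 are given first, in falling order. The peak at Mafa, a transcription factor of pancreatic beta cells, held 309 Ring1B, 84 Dzip3, 21 ubH2A and 1 input reads. At Lhx5, a LIM homeobox factor of the forebrain, it held 274 Ring1B, 81 Dzip3, 23 ubH2A and 0 input reads in chr5:120881968-120882282. At Gad2, which makes the transmitter GABA, it held 222 Ring1B, 67 Dzip3, 19 ubH2A and 0 input reads. At the predicted gene Gm8206 it held 202 Ring1B, 63 Dzip3, 62 ubH2A and 4 input reads. At Hoxc9, a homeobox gene of the posterior body axis, it held 194 Ring1B, 74 Dzip3, 24 ubH2A and 1 input reads. At the predicted gene Gm13287 it held 136 Ring1B, 75 Dzip3, 33 ubH2A and 12 input reads, and at the MHC gene H2-Q7 132 Ring1B, 61 Dzip3, 47 ubH2A and 2 input reads. At Wnt10b, which encodes a Wnt ligand, it held 131 Ring1B, 70 Dzip3, 12 ubH2A and 2 input reads. Ring1B was above Dzip3 in all 8, while ubH2A ranged from 12 to 62 reads. The 8 were picked by Ring1B reads and no peak of the 21 had more than 105 Dzip3 reads. The rule also left out ubH2A peaks, so this contrast describes the choice. Of the 21 peaks, 5 are repeated sequence, among them those at Gm8206, Gm13287 and H2-Q7.

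The other 13 had between 51 and 119 Ring1B reads and varied in ubH2A. Kazald1 had 104 Ring1B, 83 Dzip3, 3 ubH2A and 0 input reads, the fewest ubH2A reads of the group. Asxl3, a relative of a Polycomb-linked deubiquitinase cofactor, had 75 Ring1B, 59 Dzip3, 15 ubH2A and 2 input reads. Fzd10, a Wnt receptor, had 67 Ring1B, 76 Dzip3, 13 ubH2A and 4 input reads. In Rrs1, needed for ribosome assembly, ubH2A reached 56 reads beside 103 Ring1B and 86 Dzip3 reads. In Agpat5, a lipid acyltransferase, the counts were 65 Ring1B, 63 Dzip3 and 56 ubH2A reads. Slc19a1, a folate carrier, had the lowest Ring1B relative to Dzip3, with 53 and 82 reads.

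**Figure D5:**
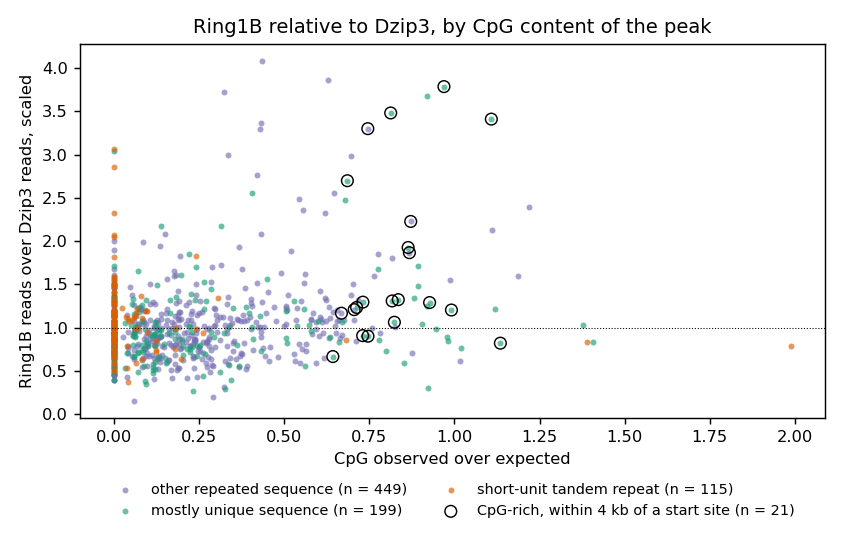
Scaled ratio of Ring1B to Dzip3 reads against the CpG content observed over expected (linear axes) in the 763 peaks, coloured by kind of sequence. The 21 circled promoter peaks have a median ratio of 1.29, the other 742 peaks a median of 0.966, and tandem peaks mostly lie at a CpG content of 0.

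By height, the promoter peaks were led by other genes. Of the 20 genes with the highest peak within 4 kb, Eps8l1 came first with 175 Dzip3, 104 Ring1B, 64 ubH2A and 29 input reads. Ddx55, an RNA helicase gene, had 175 Dzip3, 116 Ring1B, 76 ubH2A and 9 input reads. Plk5, of the Polo-like kinase family, had 281 Dzip3, 178 Ring1B, 84 ubH2A and 11 input reads. Tfpi, an inhibitor of coagulation, had 103 Dzip3, 109 Ring1B, 14 ubH2A and 2 input reads. Rptor, a subunit of mTORC1, had 92 Dzip3, 93 Ring1B, 46 ubH2A and 9 input reads. Ift81, of ciliary transport, had 110 Dzip3, 113 Ring1B, 81 ubH2A and 0 input reads. The others were C1qtnf1, Speer4e, Zfp697, 2410002F23Rik, Ctnnal1, Zfp648, Gm3264, Lipo1, Tmem68, Cdh23, Sp140, Pfkfb4, Trim72 and Gm606, with 75 to 154 Dzip3 and 63 to 123 Ring1B reads. Of all 20, only the peaks at C1qtnf1, Zfp697, Ctnnal1, Ift81 and Trim72 were mostly unique sequence. Those at Tfpi, Tmem68 and Gm606 were tandem and the rest repeated.

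The peaks were spread thinly, with a few dense places. They fell in 583 windows of 1 Mb, of which 461 held a single peak, and 5 windows with at least 5 peaks held 47. On chromosome 6, 14 peaks lay between 114384186 and 114586919, near Atg7 (autophagy) and Hrh1 (histamine receptor), among 81 Dzip3 peaks in that window. They held 56 to 131 Dzip3, 60 to 220 Ring1B, 27 to 72 ubH2A and 0 to 22 input reads. On chromosome 8, 12 peaks lay between 126061744 and 126164785, all within the annotated gene Gm20388 and nearest to Rhou (7) or Gas8 (5). They held 52 to 162 Dzip3 and 44 to 472 Ring1B reads, with a median scaled ratio of 2.66. On chromosome 6, 7 peaks lay between 47604868 and 47924362, and 4 of these were nearest to Ezh2, the catalytic subunit of Polycomb repressive complex 2. Their median ratio was 2.13, and they held up to 107 ubH2A and 35 input reads. The windows at 6 Mb of chromosome 17 (8 peaks, near Dynlt1b) and 4 Mb of chromosome 14 (6 peaks) had lower median folds over input, 4.48 and 4.197. In these 5 windows the peaks were mostly repeated sequence, with median repeated-word shares from 79.3% to 100%.

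Genes near the peaks were counted on the annotation of mm9. Of 22380 protein-coding genes, 90 had one of the 763 peaks within 4 kb of a TSS, or 0.402%, and 1546 within 100 kb, or 6.91%. For all Dzip3 peaks the counts were 701 and 8141. At least 3 peaks within 100 kb were found for few genes, and the most were 11 at Rhou, 10 each at Atg7, Dbndd1 and Gas8, 8 at Afg3l1, 7 each at Dynlt1b and Tmem181b-ps, 5 at Hrh1 and 4 each at Ezh2 and Gm3264. All of these belong to the dense windows described above.

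Of the gene lists, the Hox genes had 9 of 39 within 100 kb (23.1%), against 6.91% of all protein-coding genes. All 9 lie in the Hoxc cluster around the single peak at Hoxc9. Hoxc10 is 9.10 kb from it, Hoxc8 14.5 kb and Hoxc11 21.5 kb. Among 90 other homeobox genes there were 10 (11.1%). Apart from Lhx5 the closest were Irx1 (17.4 kb), Gsx1 (19.3 kb) and Onecut1 (48.6 kb). The peak near Gsx1, chr5:148019614-148019814, also counted for the pancreatic factor Pdx1 and for Cdx2, and held 132 Ring1B, 55 Dzip3, 7 ubH2A and 1 input reads. Of 45 bHLH genes 5 had a peak (11.1%), namely Id4 (14.1 kb), Hey2 (22.2 kb), Ascl2 (33.1 kb), Hey1 (34.4 kb) and Hes3 (72.0 kb). Those near Id4 and Hey1 are tandem repeats. Counting any Dzip3 peak, the shares were 41% of Hox, 34.4% of other homeobox and 33.3% of bHLH genes. Of all 22380 protein-coding genes, 8141 had one.

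The other lists had between 0 and 8.89% of genes within 100 kb, against 6.91% of all protein-coding genes. Counting any Dzip3 peak, the shares were 37.1% of Wnt, Fgf and Bmp ligand, 33.3% of Polycomb and 34.8% of T-box and Gata genes. They were 42.3% of naive pluripotency and 37.8% of germline genes. Of 62 Wnt, Fgf and Bmp ligand genes 3 had a peak within 100 kb (4.84%), which were Wnt10b, Wnt1 at 13.2 kb from the same peak, and Wnt7b at 40.4 kb. Of 45 Polycomb genes 4 did (8.89%), among them Ezh2 (59.5 kb). Of 23 T-box and Gata genes Gata2 (50.9 kb) and Tbx1 (53.6 kb) did. Of 26 naive pluripotency genes Pou5f1 did (66.6 kb), where the peak lies at the promoter of H2-Q7. Of 45 germline genes Smc1b (50.2 kb), Tuba3b (58.5 kb) and Ddx4 (72.1 kb) did. No Sox or Fox gene of 43 and no Cdk inhibitor gene of 7 had a peak within 100 kb, while 8 of the Sox and Fox genes had some other Dzip3 peak there. Of 10 genes that the study tested or names as lineage markers none did, and the closest were 115 kb from Eomes, 147 kb from Cdh2, 183 kb from T and 254 kb from Acta1. The lists are short, so these counts carry wide error.

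Searched for 14 short motifs on both strands, the 763 peaks differed little from Dzip3-only peaks. The E-box CACGTG was found in 4.85% here, in 6.80% of Dzip3-only peaks and in 5.58% of all Dzip3 peaks. The difference was -1.95 points (-3.65 to 0.0479). CACACACA, which overlaps the AC tandem tracts, was found in 23.5%, 25.02% and 20.1%. CAGCACC, part of the REST site, was found in 7.86%, 8.86% and 9.35%, and GCGGGA, as in E2F sites, in 2.88%, 2.98% and 3.44%. No interval of a difference from Dzip3-only peaks lay clear of 0 for any of the 14. Among unique peaks CACACACA was found in 85 of 199 (42.7%) here and in 31.03% of Dzip3-only peaks, a difference of 11.7 points (4.60 to 19.0), and CACGTG in 13.1% and 8.98%, a difference of 4.09 points (-0.189 to 9.64). These are matches of letters within peaks and not binding sites.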

How the data were processed

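ChIP-seq of E14 mES cells comprised 1 library for each of 3 targets and 1 for input DNA. Per the labels and the methods, the authors aligned reads to mm9 with the Illumina pipeline, allowing 1 mismatch, and used Partek software (FDR 0.1) to call peaks in each library. The deposited lists give counts of reads of each library in each peak. Peak heights (a signal in RPM), p-values against input DNA and ratios (scaled folds over input DNA) were deposited too, with the percent of a peak's length shared with each other list. The p-values were not used here. Library sizes were taken as extended reads over RPM.

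The members and the lists of genes and motifs were chosen with earlier results of these data known. Listed overlap percentages defined the classes. Rows with other than 18 fields, 1 each in the ubH2A and input lists, were left out, and the peaks lost with them were not analysed here. Genes, TSS and exons came from GENCODE for NCBIM37 (Ensembl release 65), and sequences from that genome, with the listed start taken as the first base. Tandem stretches, 31-base words (counted over the genome on both strands) and families were computed after seeing the data. Named peaks were the 5 highest by RPM, by Ring1B reads, and by fold with at least 5 input reads, the 5 on either side of the rule by Ring1B to Dzip3, the 20 promoter peaks highest in RPM, and list genes within 4 kb or the nearest 4 within 100 kb. A few items that these rules name are not reported here. CpG-rich promoter peaks and windows were named after their values were seen. Shares have Wilson intervals, differences Newcombe intervals and medians order-statistic intervals, all at 95%. Functions were tested on simulated data. Tables were handled in pandas 2.3.3 and numpy 2.4.6 (Python 3.11.15), words counted with numba 0.67.0, intervals taken from scipy 1.17.1 and plots drawn in matplotlib 3.10.9.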

Additional observations from a re-analysis of the deposited data

How the results depend on the processing

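No paired analysis was possible because each target had 1 library. Of 77 values recomputed under another setting, 54 stayed within the counting interval or within 1.5 times the count, and 23 did not. With only the stronger 50% of Dzip3 peaks by RPM, 404 of the 763 peaks were left. The distance to a TSS was then 56.0 kb (56034 bp), the share in gene bodies 36.1%, the GC content 51.1%, the Dzip3 density 344 reads per kb, the fold 16.6, the ratio of Ring1B to Dzip3 0.838 and of ubH2A to Dzip3 0.323, the share with over 50% repeated words 79.95%, and the genes 39 within 4 kb and 720 within 100 kb. With a fold of at least 5 the median fold was 15.9 and the ratio of ubH2A to Dzip3 0.352. That ratio was 0.356 without windows of at least 20 Dzip3 peaks, and that of Ring1B to Dzip3 was 1.00 where Ring1B covered at least 50%. With all annotated genes 17.4% lay within 4 kb of a TSS and the median distance was 22.9 kb (22908 bp). Counting the nearest gene only gave 479 genes within 100 kb, and adding 200 bases to the length gave 173 reads per kb. Thresholds chosen after seeing the data gave tandem shares of 20.3% (at least 30% of bases) and 7.99% (at least 70%), against 5.29% and 1.68% in Dzip3-only peaks, and repeated shares of 81.3% (over 30%) and 64.2% (over 70%). Beyond the change of peaks, genes, length or threshold that each setting makes, the cause was not tested. Overlaps recomputed from positions on 16 chromosomes with complete lists gave 623 peaks, the same 623 as listed there.

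With 1 library for each target, the depth limits what the absence of a ubH2A peak can show, and no spread between cultures is known.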
